A study of Arabidopsis thaliana with 6 samples.

Results

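The plastid genome of Arabidopsis thaliana encodes part of the plastid ribosome, and 10 of its ribosomal protein genes that lie outside the S10 operon are described here. They were taken by locus code as rps16, rps2, rps14, rps4, rpl33, rps18, rpl20, the first copy of rps7, rpl32 and rps15. These are 10 of 33341 genes in the count tables and 10 of the 133 plastid loci. The rule used no measured values, but these genes and the lists compared with them were chosen with earlier results of these data known. Reads of RNA from whole seedlings aged 4 days, raised in long days on agar that contained sucrose, were counted in 3 wild-type libraries (titled Col) and in 3 libraries labelled pp7l-1, called mutant-labelled here. The pp7l-1 plants are mutant for PROTEIN PHOSPHATASE 7-LIKE (PP7L), which the series links to chloroplast development, and the sources used here describe neither the lesion nor any further allele or agent. Whether replicates were grown apart is not stated, so the p-values speak only of the spread among these 6 libraries.

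The plastid ribosome is of the bacterial type, with a small subunit that decodes the messenger RNA and a large subunit that joins amino acids. Its RNAs and some of its proteins come from the plastid genome, and the other proteins are made in the cytosol from nuclear genes and imported. Plastid genes are transcribed by a bacterial-type polymerase, whose core is encoded by the plastid rpo genes, and by phage-type polymerases from the nucleus. Most plastid genes are read together with their neighbours as long transcripts that are then cut, so the level of one gene also depends on the unit in which it lies.

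The wild-type libraries held between 14342054 and 16744328 counts, with between 11269557 and 13724880 in the mutant-labelled ones. PP7L itself (AT5G10900) had 24, 22 and 21 counts in the wild-type libraries and 280, 247 and 315 in the mutant-labelled libraries. The mutant label thus does not go with fewer PP7L counts. Whether these counts come from an intact transcript was not tested, and every direction below rests on the labels. Plastid transcripts took 69.95 ± 2.35% of counts (SD, n = 3) in the wild-type libraries and 60.2 ± 4.42% in the mutant-labelled libraries, and psbA alone took 48.8 ± 3.05% and 23.5 ± 4.45%. Nuclear ribosomal RNA genes took 7.56% of the counts in pp7l-1 replicate 1 and at most 0.0151% in the other 5 libraries. Markers of 3 tissues were summed in CPM, which are counts per 1e+06 after TMM scaling (a trimmed mean of log ratios between libraries). The 5 green tissue markers lay between 10803 and 14111 CPM in the wild-type libraries and between 13855 and 17134.5 CPM in the mutant-labelled libraries, with 1 of 5 higher. The 6 root markers summed to between 66.7 and 78.7 CPM against between 18.7 and 27.6 CPM, with 5 of 6 lower and 1 higher. The 9 seed markers summed to between 5.98 and 9.46 CPM against between 34.3 and 129 CPM, with 5 of 6 tested members higher. None of these markers was at 0 in every library of a group. Their part in the results below was not tested, and in whole seedlings a change in the amount of a tissue and a change in RNA per cell cannot be told apart.

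Of the 10 genes, 9 had enough counts to be tested, and 5 of them were higher in the mutant-labelled libraries. These were rps2, rps15 and rps18 of the small subunit and rpl20 and rpl32 of the large subunit. None of the 9 was lower in edgeR's quasi-likelihood test, also at an unadjusted p under 0.05, and DESeq2 and limma voom also called 0 lower. The call was a Benjamini-Hochberg adjusted p under 0.05 over 18115 genes, at which 10.6% of all tested genes were higher and 11.3% lower. Their median log2 fold change, over all 9, was 0.85, where the median of all tested genes was -0.01. The comparison with other plastid loci is closer, since 41 of 96 tested were higher and 5 lower, with a median of 0.81. In CPM, the groups did not overlap in 5 of the 9 genes (rps2, rps4, rps18, rpl20 and rps15), each higher in the mutant-labelled libraries, as in 18.7% of all tested genes. None of the 9 was lower without overlap, against 19.5% of all tested genes. Within the mutant-labelled libraries, replicate 1 was the lowest for 9 of 9 genes and replicate 3 the highest for 7 of 9. Replicate 1 is the library with many nuclear ribosomal RNA counts, and without it 6 of the 9 were higher. Without wild-type replicate 2 the count was 3.

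**Figure D1:**
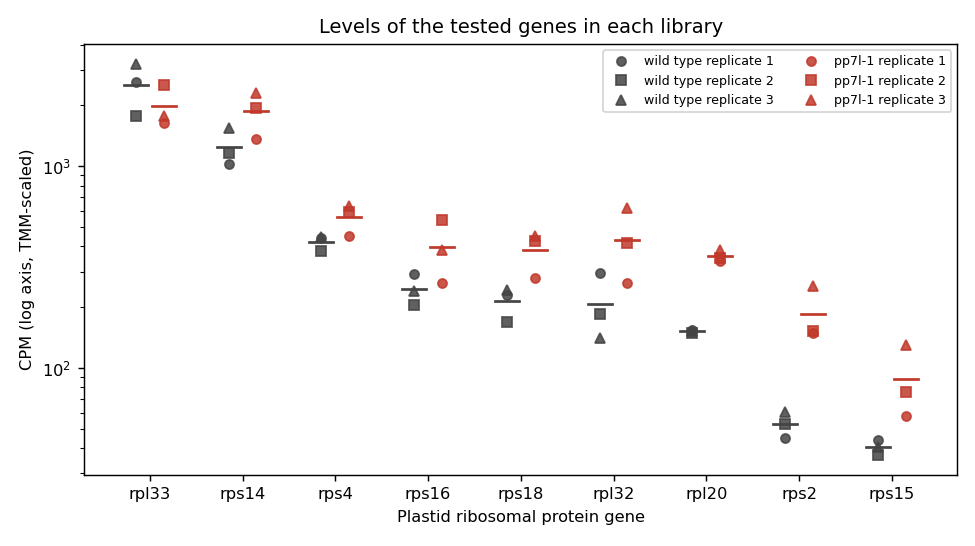
Level of each of the 9 tested genes in every library, in CPM on a log axis, with wild type in grey, pp7l-1 in red, 1 symbol per replicate number and a bar at the group mean. The groups are well apart for rpl20 and rps2, and they overlap for rpl33, rps14, rps16 and rpl32.

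The gene with the largest change was rps2 (ATCG00160), for protein S2 of the small subunit. In the RefSeq annotation of TAIR10.1, to which the genes were matched by symbol, it lies on the minus strand of the plastid genome at 15013 to 15723, without an intron. Its level was 44.8, 52.6 and 60.5 CPM in the wild-type libraries and 149, 152 and 253 CPM in the mutant-labelled libraries. Every mutant-labelled library was above every wild-type library, with replicate 3 highest. The log2 fold change was 1.81 ± 0.24 (SE, adjusted p = 0.000115), a 3.52-fold higher level.

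The next change was that of rpl20 (ATCG00660, minus strand, 68512 to 68865), whose protein L20 takes part in early assembly of the large subunit in bacteria. It read 154, 149.5 and 153 CPM in the wild-type libraries and 339, 351 and 384 CPM in the mutant-labelled libraries. It varied least among the 9 genes, with an SD of 2.42 CPM in the wild-type libraries and 23.5 CPM in the other group. The log2 fold change was 1.23 ± 0.21 (adjusted p = 0.000644).

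The small-subunit gene rps15 (ATCG01120, minus strand, 123296 to 123562) encodes a protein that binds the 16S ribosomal RNA. It had 43.7, 36.9 and 40.5 CPM in the wild-type libraries and 58.1, 75.8 and 129.96 CPM in the mutant-labelled libraries. The groups did not overlap, with pp7l-1 replicate 3 well above the other two. Its log2 fold change was 1.12 ± 0.26 (adjusted p = 0.00580).

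For the large-subunit gene rpl32 (ATCG01020, plus strand, 113449 to 113607) the libraries of both groups were spread widely. The wild type read 297, 184 and 141 CPM and the mutant-labelled libraries 263, 416 and 619 CPM, so that wild-type replicate 1 stood above pp7l-1 replicate 1. The log2 fold change of 1.06 ± 0.32 passed (adjusted p = 0.0263), but with 1 library left out the adjusted p was 0.0949 without wild-type replicate 2, 0.109 when wild-type replicate 3 was left out and 0.0860 when pp7l-1 replicate 3 was.

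The gene rps18 (ATCG00650, plus strand, 67917 to 68222), also of the small subunit, read 229, 169 and 243 CPM in the wild-type libraries and 279, 424 and 451 CPM in the mutant-labelled libraries. The groups did not overlap, with a gap between the highest wild-type library and pp7l-1 replicate 1 that was smaller than the spread within either group. Its log2 fold change was 0.85 ± 0.25 (adjusted p = 0.0220), and the adjusted p was 0.0577 without wild-type replicate 1 and 0.1003 without wild-type replicate 2.

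Of the genes that did not pass, rps16 (ATCG00050, minus strand, 5084 to 6188) came nearest. The annotation gives it as the gene for protein S16 of the small subunit, and it is the only one of the 10 with an intron there. Whether its transcript is spliced, or gives a working protein, was not tested. Its level was 292, 206 and 241 CPM against 262, 541 and 384 CPM, with a log2 fold change of 0.68 ± 0.27 (adjusted p = 0.0787). The groups overlapped through pp7l-1 replicate 1, and without that library the value was 0.91 (adjusted p = 0.0385). Without pp7l-1 replicate 2 it was 0.42 (adjusted p = 0.237), and with the other libraries left out in turn it did not pass. DESeq2 (adjusted p = 0.0376) and a fit with no count filter (adjusted p = 0.0301) called it higher, and limma voom did not (adjusted p = 0.0943).

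The gene rps4 (ATCG00380, minus strand, 45223 to 45828), whose protein starts the assembly of the small subunit in bacteria, read 439, 380.3 and 444 CPM in the wild-type libraries and 451, 593 and 637 CPM in the mutant-labelled libraries. The groups did not overlap, by a small margin, and the log2 fold change was 0.41 ± 0.23 (adjusted p = 0.223). The gene rps14 (ATCG00330, minus strand, 36938 to 37240), for protein S14 of the small subunit, read 1027, 1161 and 1549 CPM against 1358, 1939 and 2297 CPM. Wild-type replicate 3 lay above pp7l-1 replicate 1 here. Its log2 fold change was 0.58 ± 0.29 (adjusted p = 0.173).

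The large-subunit gene rpl33 (ATCG00640, plus strand, 67488 to 67688), whose protein is dispensable in tobacco under standard conditions and needed in the cold, was the only one with a value below 0. It read 2594, 1770.4 and 3219 CPM in the wild-type libraries and 1641, 2527 and 1769 CPM in the mutant-labelled libraries. The groups overlapped, and its log2 fold change was -0.35 ± 0.31 (adjusted p = 0.457), or 0.08 when scaled on library size alone. It made up 48.9 ± 5.13% of the counts of the 10 genes in the wild-type libraries and 31.9 ± 5.59% in the mutant-labelled libraries (exact two-sided permutation p = 0.1). That p is the smallest that 3 libraries against 3 allow, here and in each permutation test below.

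The remaining gene, rps7 (ATCG00900, minus strand, 97478 to 97945), for protein S7 of the small subunit, lies in the inverted repeat and has a second copy in the plastid genome. Its counts of 0, 3 and 5 in the wild-type libraries and 7, 5 and 20 in the mutant-labelled libraries were too low for the filter. The second copy had 0, 0 and 1 counts and 2, 1 and 5. With no filter on counts the first copy had a log2 fold change of 1.77 ± 0.66 (adjusted p = 0.0442), from 8 counts against 32, and both copies summed had 1.92 ± 0.61 (adjusted p = 0.0133), from 9 against 40. Reads that match both copies may have been dropped, so these counts do not give the level of rps7. The counts of the 8 plastid ribosomal RNA loci, which lie in the same repeat, do not give their levels either. They had at most 20 counts in any library, and none could be tested. Nuclear ribosomal RNA genes also took few counts, except in pp7l-1 replicate 1, and the cause of the low plastid ribosomal RNA counts was not tested.

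Per kilobase of coding length, the wild-type order was rpl33 at 12576 ± 3614 CPM per kb, rps14 at 4110 ± 895, rpl32 at 1304 ± 506, rps16 at 1026 ± 180.4, rps18 at 697 ± 128, rps4 at 695 ± 58.2, rpl20 at 429.9 ± 6.83, rps15 at 151 ± 12.7 and rps2 at 74.0 ± 11.1 CPM per kb. Neighbours in this order overlapped between rpl32 and rps16 and between rps18 and rps4. In the mutant-labelled libraries the order was the same except that rpl20 stood above rps4, at 1011 ± 66.4 and 924 ± 160.3 CPM per kb. There rpl33 was at 9846 ± 2382 and rps2 at 260.2 ± 83.4 CPM per kb, and the values overlapped between neighbours from rpl32 down to rps4 and between rps15 and rps2. Both orders rest on annotated coding lengths, from 159 bases for rpl32 to 711 for rps2. The features in which reads were counted are not given, and rps16 spans 5084 to 6188 with only 240 coding bases. The orders are therefore approximate, most of all for the short genes.

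As a share of all counts the 10 genes took 0.474%, 0.381% and 0.458% in the wild-type libraries and 0.520%, 0.735% and 0.934% in the mutant-labelled libraries (exact permutation p = 0.1, adjusted p = 0.2 over 4 shares). Of plastid counts they took 0.625 ± 0.0608% and 1.20 ± 0.268% (p = 0.1, exact permutation, adjusted p = 0.2), and the groups did not overlap. These shares hold psbA and rbcL in their total. With both removed from all counts, the shares were 1.01 ± 0.133% in the wild-type libraries and 1.20 ± 0.322% in the mutant-labelled libraries. Those values overlapped (exact permutation p = 0.5, adjusted p = 0.5). With both removed from the plastid counts, the 10 genes took 3.25 ± 0.197% in the wild-type libraries and 3.47 ± 0.321% in the mutant-labelled libraries, which overlapped (exact permutation p = 0.4, adjusted p = 0.5).

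The directions also depend on what the levels are scaled to. TMM scaling over plastid genes alone sets levels relative to a trimmed mean over those genes, not to the sum of plastid counts. With it, 1 of the 9 genes was higher and 1 lower. Those were rps2, at 1.26, and rpl33, at -0.87 (adjusted p = 0.0481). The value of rps4 turned to -0.13, and the median of the 9 was 0.30. Scaled on library size alone, 8 of 9 were higher. The median of all tested genes moved to -0.55 with the plastid scaling and to 0.41 with library size.

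**Figure D2:**
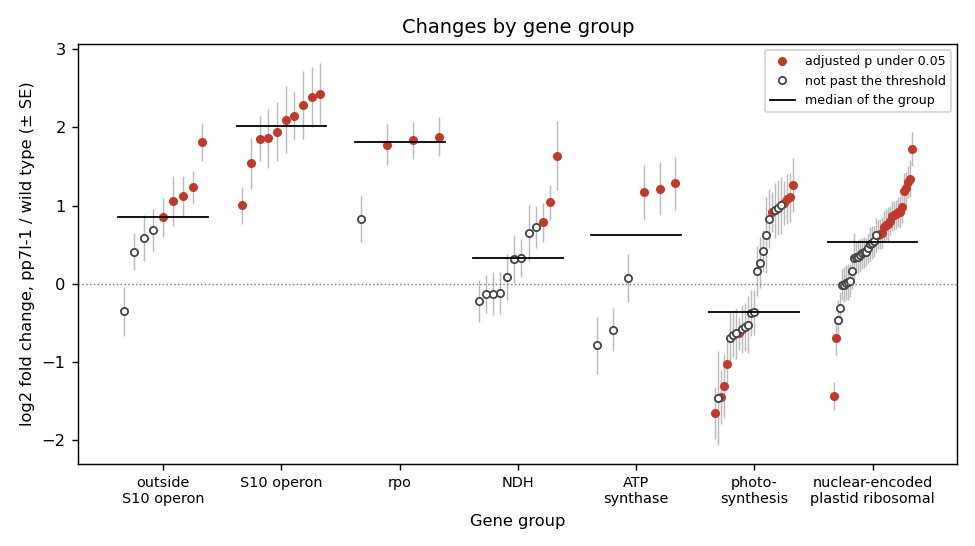
Log2 fold change of pp7l-1 against wild type with its standard error for each tested gene of 7 groups, red where the adjusted p was under 0.05, with a line at the group median. The ribosomal genes outside the S10 operon have a median of 0.85, below the 2.02 of the S10 operon (1.90 without the rpl2 copies) and the 1.80 of the rpo genes.

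The rest of the plastid-encoded ribosomal proteins are mostly read from the S10 operon. There 10 of 10 tested loci were higher and 0 lower, with a median log2 fold change of 2.02. Both copies of rpl2 in the inverted repeat are among the 10, with between 4 and 7 counts per wild-type library, and without them 8 of 8 were higher with a median of 1.90. Among them rps19, for a protein of the small subunit, had 2.43 ± 0.39, the highest of the 10 (adjusted p = 0.000482), and 1.59 without pp7l-1 replicate 3. Of the 4 rpo genes 3 were higher, from rpoA at 0.83 ± 0.29, which did not pass (adjusted p = 0.0554), to rpoC1 at 1.88 ± 0.25. The call on rpoA was near the threshold, and it passed with DESeq2 (adjusted p = 0.0123), upper quartile scaling, library size alone, no count filter, a replicate block (adjusted p = 0.0473) and in 3 of the 6 fits that each left out 1 library. The 5-prime exon of rps12, which also lies outside the S10 operon and was not among the 10 genes, rose by 1.85 ± 0.28 (adjusted p = 0.000269).

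The ratio of the 9 tested genes to other plastid groups was taken within each library, which removes the scaling. The summed counts of the 9 genes were 2.92 ± 0.0678 log2 units above those of the 8 single-copy S10 operon genes in the wild-type libraries and 1.57 ± 0.751 above in the mutant-labelled libraries. The ratio was thus lower by 1.34 log2 units (a difference of -1.34), with values of 2.88, 2.88 and 2.996 against 1.59, 2.32 and 0.82, and the groups did not overlap (exact permutation p = 0.1, adjusted p = 0.25 over 5 ratios). Against the rpo genes the difference was -1.08, again without overlap (exact permutation p = 0.1, adjusted p = 0.25). Against NDH genes it was 0.16, against ATP synthase genes 0.34 and against photosynthesis genes without psbA and rbcL 0.10, and in each of these the groups overlapped. When each gene counted equally, so that rpl33 did not dominate, the differences were -0.94 for the S10 operon, -0.76 for rpo, 0.55 for NDH, 0.46 for ATP synthase and 0.82 for photosynthesis genes, with no overlap in any (exact permutation p = 0.1, adjusted p = 0.1 over 5).

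Of 40 tested nuclear genes for plastid ribosomal proteins 18 were higher and 2 lower, and the median of their log2 fold changes was 0.53. The number lower was 1 without wild-type replicate 1 or 3 or pp7l-1 replicate 1. PRPL1 (AT3G63490), for protein L1, had the highest value, 1.72 ± 0.21, and PRPS1 (AT5G30510), for protein S1, the lowest, -1.43 ± 0.18. PRPS1 read 58.6, 61.8 and 59.2 CPM in the wild-type libraries and 22.9, 21.3 and 22.6 CPM in the mutant-labelled libraries.

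**Figure D3:**
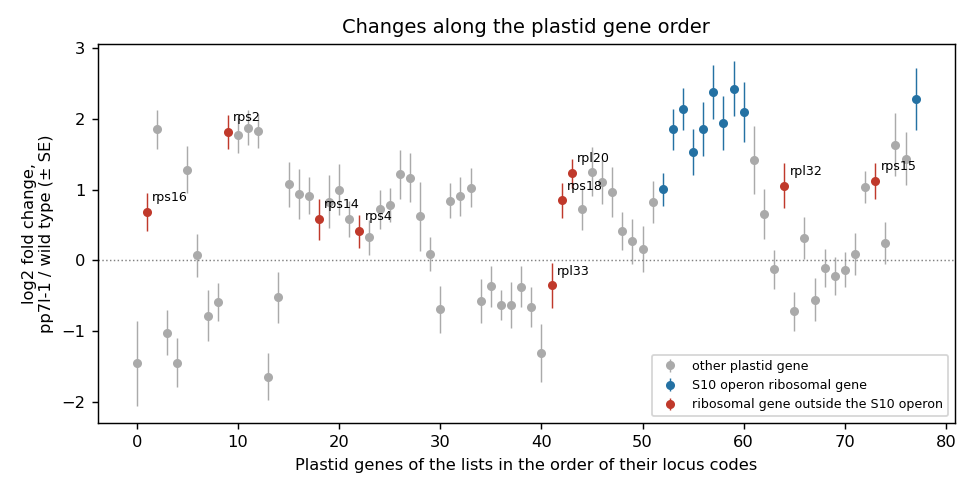
Log2 fold change with its standard error for the tested plastid genes of the lists, in the order of their locus codes, with the ribosomal genes outside the S10 operon in red and those of the S10 operon in blue. The value of rps2 sits beside those of the rpo genes, rpl33 beside lower photosynthesis genes, and rps18 and rpl20 just after it.

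Of the 10 genes, rpl33, rps18 and rpl20 lie next to one another, and the others lie apart over the plastid genome. Each of the 10 was set against a neighbour by the log2 ratio of their counts in a library. For rps18 the neighbour was rpl33, also among the 10. For rps16 the neighbour matK had 0 counts in all 6 libraries, and rps7 was too low, so 8 ratios were compared. The gene rps2 lies between atpI, for a subunit of the ATP synthase, and rpoC2, for a subunit of the plastid polymerase. Its ratio to atpI was -5.38, -5.001 and -5.17 in the wild-type libraries and -2.99, -2.93 and -2.54 in the mutant-labelled libraries. The ratio was higher in every mutant-labelled library than in every wild-type library, by 2.36 log2 units on average (exact permutation p = 0.1, adjusted p = 0.16 over 8 ratios). The level of atpI itself had a log2 fold change of -0.58 ± 0.27 (adjusted p = 0.137 with edgeR, 0.0209 with DESeq2 and 0.0845 with limma voom). On the other side, the ratio of rps2 to rpoC2 was -1.77 ± 0.104 and -1.75 ± 0.191, a difference of 0.02 with overlapping groups (exact permutation p = 0.9). Ratios to the gene on the other side were added after the data had been seen, as 8 further ratios.

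The plus-strand genes psaJ, rpl33 and rps18 follow one another, and psaJ encodes a small subunit of photosystem I. Their log2 fold changes were -1.31 ± 0.41 (adjusted p = 0.0322), -0.35 ± 0.31 and 0.85 ± 0.25. psaJ fell from 8914, 6664 and 15944 CPM to 3104, 6231 and 3412 CPM, although the adjusted p was 0.0571 with DESeq2, 0.0838 with library size alone, 0.0641 with a replicate block and between 0.0666 and 0.197 when replicate 1 or 3 of either genotype was left out. The ratio of rpl33 to psaJ differed by 0.94 log2 units and that of rps18 to rpl33 by 1.17, both without overlap between the groups (exact permutation p = 0.1, adjusted p = 0.16). The ratio of rps18 to rpl33 was -3.50, -3.39 and -3.73 in the wild-type libraries and -2.56, -2.58 and -1.97 in the mutant-labelled libraries. The ratio of rps18 to rpl20, which lies next to it on the opposite strand, was 0.47 ± 0.261 and 0.08 ± 0.308, with overlap.

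On the minus strand, rpl20 lies near clpP1, for a subunit of the Clp protease. The ratio of the pair differed by 0.50 log2 units without overlap (exact permutation p = 0.1, adjusted p = 0.16), where clpP1 had a log2 fold change of 0.73 ± 0.30 (adjusted p = 0.0891 with edgeR, 0.00165 with DESeq2 and 0.0454 with limma voom). For rpl32 and ccsA, for a cytochrome assembly protein, the ratio differed by 1.77, from -0.91, -1.20 and -2.39 to 0.11, 0.06 and 0.62, where ccsA had -0.72 ± 0.27 (adjusted p = 0.0693 with edgeR, 0.0280 with DESeq2 and 0.0582 with limma voom). The ratio of rpl32 to ndhF on its other side differed by 1.20, also without overlap (exact permutation p = 0.1, adjusted p = 0.2 over 8).

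In 3 of the 8 pairs the ratios overlapped between the groups. For rps14 and psaB, for a reaction centre protein of photosystem I with which rps14 is transcribed, the difference was -0.25 (exact permutation p = 0.5). It was -0.0425 without pp7l-1 replicate 1 and -0.56 without pp7l-1 replicate 2 (exact permutation p = 0.1). For rps4 and ycf3, for a photosystem I assembly factor, it was -0.16 (exact permutation p = 0.2). For rps15 and ndhH, for a subunit of the NDH complex, it was 0.02 (exact permutation p = 0.9), and ndhH itself rose by 1.04 ± 0.23 (adjusted p = 0.00445). The ratio of rps15 to ycf1 on its other side differed by 0.84 without overlap (exact permutation p = 0.1, adjusted p = 0.2). Of the other ratios to the far side, rps16 to psbK, for a small subunit of photosystem II, differed by 1.64 and rps14 to psbZ, for another, by -0.34, both without overlap (exact permutation p = 0.1, adjusted p = 0.2). Those of rps4 to ndhJ (0.11) and of rpl20 to the 5-prime exon of rps12 (-0.53) overlapped.

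**Figure D4:**
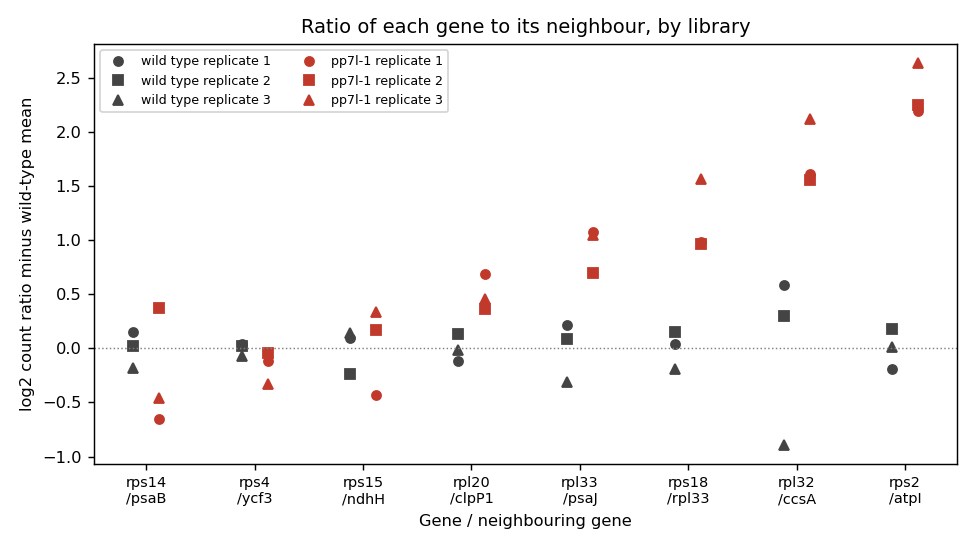
Log2 count ratio of 8 ribosomal genes to a neighbouring gene in each library, minus the wild-type mean of that ratio, with wild type in grey, pp7l-1 in red and 1 symbol per replicate number. The ratios of rps2 to atpI and of rpl32 to ccsA lie above the wild type by 2.36 and 1.77, and that of rps15 to ndhH by 0.02.

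The pattern over the 6 libraries was compared with the mean log2 level of the 9 genes by Pearson's r, as a description over 6 libraries that share their scaling and genotypes. Of the 9 genes, rps18 followed that mean most closely (r = 0.986) and rpl33 did not (r = -0.200). Each of the 9 is itself part of the mean, so their r values are not comparable with those of genes outside it. Among 96 other plastid loci, 23 had an r over 0.9, and among 17952 nuclear genes 371. The closest plastid loci were clpP1 (r = 0.988), ATCG00370 (r = 0.972) and ycf3 (r = 0.968). All lie near members of the mean: clpP1 and ycf3 were set against rpl20 and rps4 above, and the code of ATCG00370 falls between those of ycf3 and rps4. Whether they share reads or transcripts with these members was not tested. The closest nuclear genes were BZO2H1 (AT4G02640, r = 0.996), for a transcription factor of the bZIP family, CYP97B3 (AT4G15110, r = 0.996), for a cytochrome P450, and AT5G22760 (r = 0.993). None of these 6 passed edgeR's test between genotypes, with log2 fold changes between 0.35 and 0.73. With DESeq2 clpP1 (adjusted p = 0.00165) and ycf3 (adjusted p = 0.0352) passed, with limma voom clpP1 (adjusted p = 0.0454), and with RLE or upper quartile scaling AT5G22760 (adjusted p = 0.0486 and 0.0385). All 6 passed when scaled on library size alone.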

How the data were processed

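The authors deposited 1 table per library with raw counts of reads for 33341 genes, not normalised. Trimmomatic, FastQC, TopHat2 2.1.1 and featureCounts, and the genome build TAIR10, are named per the submitters' processing notes. The annotation counted, the strand setting and the treatment of reads with several matches are not given in the sources used here, so reads of repeated, overlapping or antisense genes are uncertain.

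From the deposited counts, genes were kept by filterByExpr (minimum count 10), scaled by TMM and tested in R 4.3.3 with edgeR 4.0.16 (quasi-likelihood test), with genotype as the only term and Benjamini-Hochberg adjustment over 18115 genes. The threshold was 0.05. CPM are counts per 1e+06 after TMM scaling, and fold changes are pp7l-1 over wild type. The fit was tested on simulated data. Ratios used counts plus 0.5 for single genes, with exact two-sided permutation tests over libraries. Alternatives used DESeq2 1.42.0, limma 3.58.1 (voom), other scalings and filters, and libraries left out in turn.

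Plastid names come from the locus list, and coordinates and coding lengths from RefSeq TAIR10.1, where all 10 symbols matched in the order of the locus codes. TAIR10.1 is not the build the submitters name. The members and lists were chosen with earlier results of these data known. The genes named are the 10 members, their neighbours, the highest and lowest of the S10 operon, rpo and nuclear lists, and the 6 closest in pattern. The genes on the other side of members, rps12 and the tissue markers were named beside that rule.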

Additional observations from a re-analysis of the deposited data

How the results depend on the processing

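Of 135 recomputed log2 fold changes of the 9 tested genes, 117 kept their direction and their side of the threshold, 9 no longer passed, 7 newly passed and 2 reversed. The number of the 9 genes called higher was 5, and between 3 and 6 with 1 library left out, with 3 without wild-type replicate 2. It was 8 with library size alone and 1 with TMM on plastid genes, where 1 was lower. Between 5 and 6 of the 9 were higher with the other settings, and with no count filter, where rps7 also entered, 7 of 10 were. The reversed values were rps4 at -0.13 with TMM on plastid genes and rpl33 at 0.0753 with library size. With the plastid scaling ATCG00370 turned to -0.14, BZO2H1 to -0.20, CYP97B3 to -0.12 and AT5G22760 to -0.00615. Of the 40 nuclear ribosomal genes 29 were higher and 1 lower with library size alone, and 4 and 4 with the plastid scaling. With 1 library left out between 13 and 21 were higher and between 1 and 2 lower. The cause of these shifts was not tested beyond the scaling itself. Near-zero ratio differences changed sign when 1 library was left out. The difference against photosynthesis genes ran from -0.0299 to 0.24, that of rps15 to ndhH from -0.13 to 0.25, that of rps2 to rpoC2 from -0.0424 to 0.13 and that of rps4 to ndhJ from -0.10 to 0.26. Same-numbered libraries did not deviate together (correlations of 0.10, -0.03 and 0.05), and with a replicate block 5 of the 9 genes were higher and 0 lower, while psaJ no longer passed and rpoA did.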
